A study of Mus musculus with 18 samples.

Results

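The Nodal pathway was followed through 8 genes that encode its ligands (Nodal, Gdf3), coreceptors (Tdgf1, Cfc1) and secreted antagonists (Lefty1, Lefty2, Cer1, Fst). They are 8 of the 18193 genes on the array. They were measured by the probe sets annotated to exactly 1 of these symbols, 12 of the 34945 probe sets with a single gene symbol. Nodal, Gdf3, Cer1 and Fst had 2 probe sets each and the other members had 1. All 12 passed the filter on dim probe sets. RNA came from mouse embryoid bodies, which are aggregates of embryonic stem cells cultured so that they differentiate, made from A2loxFMsgn1 stem cells of strain 129P2 that had grown on inactivated mouse fibroblasts. Every group carried the same inducible cassette for Flag-tagged Msgn1, a DNA-binding regulator of the basic helix-loop-helix family that marks presomitic mesoderm. In induced groups 1 µg/ml doxycycline was added on day 2 of differentiation and the embryoid bodies were collected 12, 24 and 48 h later. Uninduced groups received no doxycycline and were collected at the same times. There were 3 arrays, labelled as biological replicates, in each of the 6 groups. The labels do not say whether replicates came from separate cultures, so p-values measure the spread between these arrays. Doxycycline given to cells without the cassette was not analysed here.

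Nodal is a secreted ligand of the TGF-beta family that patterns the epiblast and drives the formation of mesoderm and endoderm at the primitive streak. It acts through activin receptors and an EGF-CFC coreceptor, Tdgf1 (Cripto) or Cfc1 (Cryptic), and the signal reaches the genome through Smad2 and Smad3 with the DNA-binding partner Foxh1. Lefty1 and Lefty2 are themselves targets of the pathway and block it, so the pathway limits its own range. Cer1 binds Nodal and Bmp ligands outside the cell, and Fst (follistatin) binds activins.

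The deposited values are signal on a linear scale. Every log2 change below compares the means of log2(signal + 32) of 3 arrays with 3 others and is followed by its standard error. Folds refer to that same quantity, which understates changes of dim probe sets. A probe set was called at an adjusted p under 0.05 in limma's test over 26049 probe sets. The median signal of an array was 18.8 to 22.1, and replicates correlated at 0.990 to 0.994. The Msgn1 probe set had a signal of 44.5 to 76.8 on the induced arrays, against 4.69 to 25.2 on the uninduced arrays, so it matched every label. Presomitic markers summed to a higher signal in induced than in uninduced arrays at each time. Precision is limited by having 3 arrays in a group. In a mixture of cells such as an embryoid body, fewer cells of a type and less RNA per cell cannot be told apart.

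The sequence around the transcription start is shown for 3 members called for induction: Cer1 and Nodal (its brighter probe set only), lower at 48 h, and Tdgf1, higher at 24 h. The calls of Nodal and Tdgf1 ended in some other fits, as given below. Each stretch runs from 250 bases before to 50 bases after the start, 5′ to 3′ on the gene's strand, from RefSeq's GRCm38.p6 table, which held 4 of the 8 members. Capitals mark matches to CANNTG, the general E-box that basic helix-loop-helix factors recognise.
Cer1, chr4:82885102-82885401, minus strand: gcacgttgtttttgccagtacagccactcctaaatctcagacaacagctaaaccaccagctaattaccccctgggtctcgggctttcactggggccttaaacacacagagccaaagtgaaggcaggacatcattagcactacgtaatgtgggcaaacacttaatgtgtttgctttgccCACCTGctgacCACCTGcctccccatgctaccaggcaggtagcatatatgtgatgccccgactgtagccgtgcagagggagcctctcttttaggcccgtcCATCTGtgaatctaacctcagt
Nodal, chr10:61417722-61418021, plus strand: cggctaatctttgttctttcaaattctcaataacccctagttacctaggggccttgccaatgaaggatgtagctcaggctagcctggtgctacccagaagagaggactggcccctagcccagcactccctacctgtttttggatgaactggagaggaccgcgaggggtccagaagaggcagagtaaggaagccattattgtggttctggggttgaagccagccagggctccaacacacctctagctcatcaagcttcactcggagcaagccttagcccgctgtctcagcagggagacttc
Tdgf1, chr9:110946109-110946408, minus strand: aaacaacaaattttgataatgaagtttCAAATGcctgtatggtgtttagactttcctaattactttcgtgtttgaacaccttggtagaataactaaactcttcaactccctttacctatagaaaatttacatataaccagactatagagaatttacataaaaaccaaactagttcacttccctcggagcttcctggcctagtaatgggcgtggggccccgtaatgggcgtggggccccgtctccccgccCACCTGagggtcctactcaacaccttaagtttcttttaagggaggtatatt

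In the Cer1 stretch 3 matches to CANNTG were found, of which both CACCTG matches begin 72 and 61 bases before the start and CATCTG begins at base 29 after it. The Tdgf1 stretch holds 2, CAAATG beginning 223 bases and CACCTG beginning 1 base before the start. The Nodal stretch and that of Cfc1 hold none. The motif occurs in 72.3% of the 32851 windows of this length in the table, so its presence does not set a promoter apart. The forkhead motif TGTTTNC (either strand) has 2 matches in the Cer1 stretch, which begin 99 and 85 bases before the start, and 1 in that of Cfc1, and occurs in 20.5% of windows. The CAGAC element of Smad proteins (either strand) has 1 match each in the windows of Cer1, Tdgf1 and Cfc1, and occurs in 49.6% of windows. AATNCACA, searched for Foxh1, and TAATCC, searched for Otx2 and Gsc, had no match in these 4 windows on either strand and occur in 3.6% and 7.06% of windows. These motifs do not overlap E-box matches in the stretches shown, and a match is a run of letters, not a measured site.

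Nodal, Gdf3, Cfc1, Lefty1, Lefty2 and Fst were called between successive times in both arms, and Tdgf1 and Cer1 in uninduced embryoid bodies only. The change from 12 to 48 h was not tested. Limma called Nodal, Tdgf1, Lefty1, Lefty2, Cer1 and Fst for induction at 1 or more times. At 24 h the coreceptor gene Tdgf1 and the antagonist gene Lefty2 were higher in induced embryoid bodies. At 48 h Lefty2 was still higher, while Lefty1, both probe sets of Cer1 and 1 each of Nodal and Fst were called lower. At 12 h limma called 0 of 12 probe sets, against 0.649% of all probe sets tested, and 6 had an unadjusted p under 0.05. At 24 h it called 2 of 12, against 2.31% of all, with 2 higher and 0 lower where 1.85% and 0.465% of all were. The count was 1 without induced 24 h replicate 1 or 2 or uninduced 24 h replicate 1 or 3, since Tdgf1 then lost its call. At 48 h it called 6 of 12, against 8.85% of all, with 1 higher and 5 lower where 4.94% and 3.9% of all were. That count was 3 without uninduced 48 h replicate 1, when Lefty1 and both probe sets of Cer1 kept their calls. The 3 induced arrays lay wholly to one side of the 3 uninduced arrays in 6 of 12 probe sets at 12 h, 4 of 12 at 24 h and 8 of 12 at 48 h. Over all probe sets tested such separation occurred in 16.9%, 16.3% and 25.6%. The median log2 change of the 12 was -0.06, -0.04 and -0.37 at the 3 times, against 0.00 at each time over all probe sets tested.

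**Figure D1:**
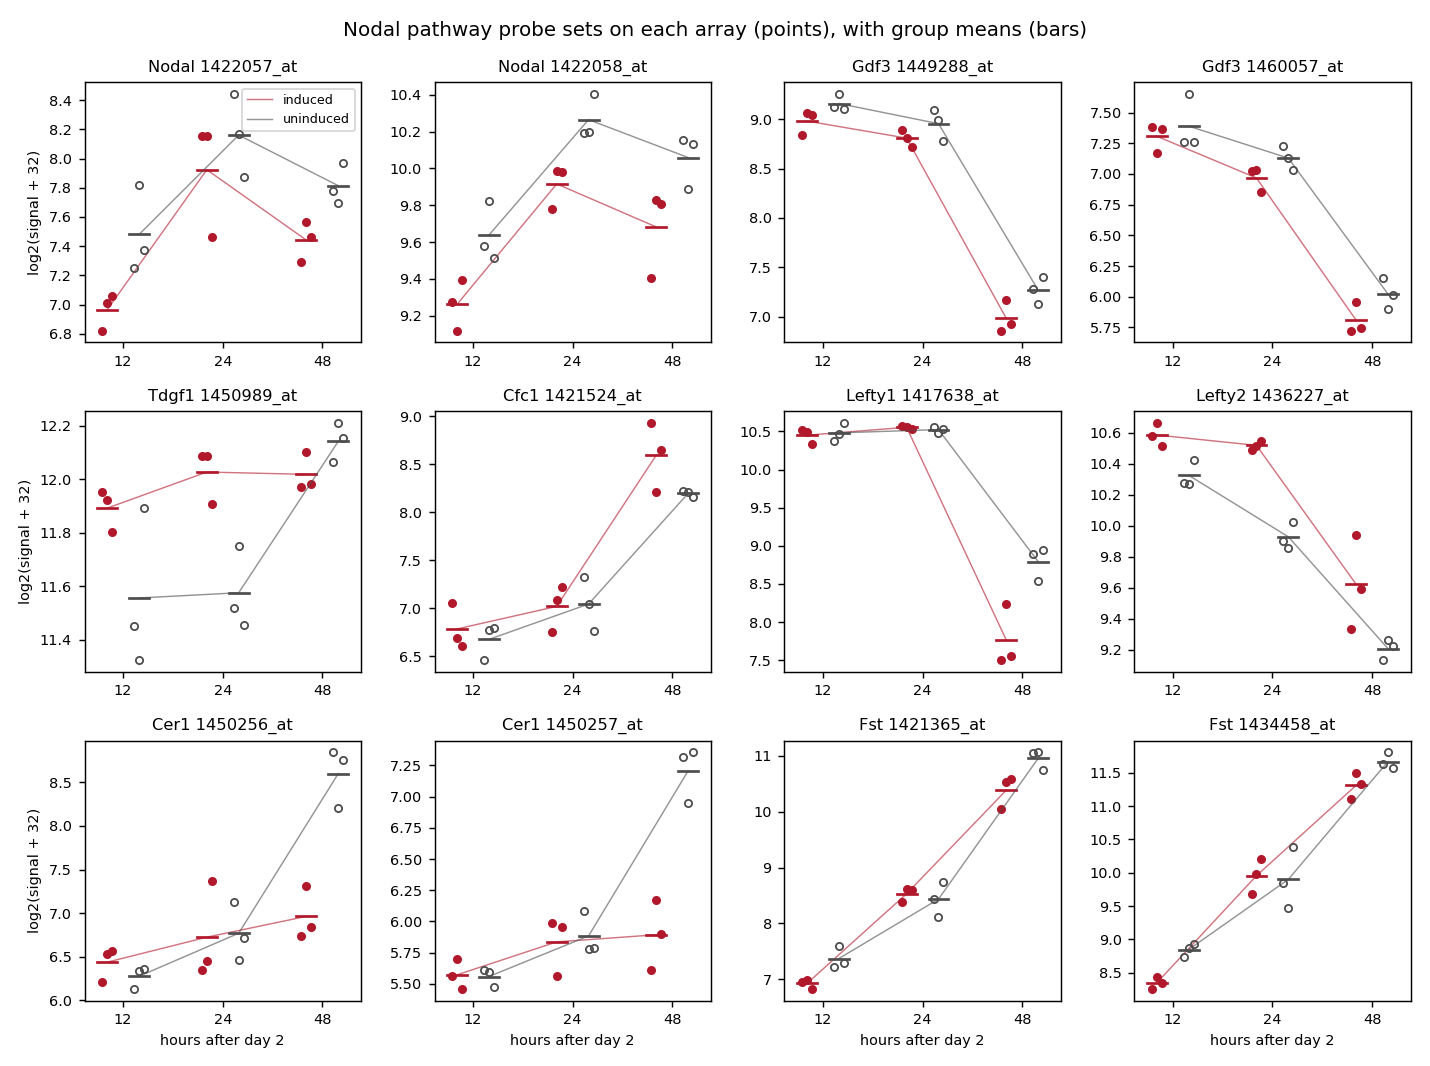
Each panel plots log2(signal + 32) of 1 probe set on the 18 arrays against hours after day 2, with filled red points for induced and open grey points for uninduced arrays, short bars for group means of 3 arrays and thin lines joining them. The induced and uninduced arrays of Lefty1 and Cer1 overlap at 12 and 24 h and separate at 48 h, while those of Lefty2 are separate at all 3 times.

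Nodal, the ligand that gives the pathway its name, had its highest group means at 24 h in both arms, and 1 of its 2 probe sets was lower with induction at 48 h. The probe set 1422058_at had signals of 587, 524 and 641 in induced embryoid bodies at 12 h, against 733, 874 and 698 in uninduced ones. At 24 h the signals were 847, 982 and 979 in induced and 1137, 1144 and 1322 in uninduced embryoid bodies, and at 48 h 647, 878 and 865 in induced and 1106, 916 and 1092 in uninduced ones. Every induced array lay below every uninduced array of its time. In the order of group means uninduced 24 h was highest and induced 12 h lowest, each apart from its neighbour, and the groups between them overlapped one with the next. The log2 change was -0.38 ± 0.113 at 12 h, -0.35 ± 0.113 at 24 h and -0.38 ± 0.113 at 48 h. Only the last was called (adjusted p = 0.0385); the limma adjusted p was 0.181 at 12 h and 0.129 at 24 h. The call at 48 h ended without induced 48 h replicate 1 (-0.24, adjusted p = 0.251), without uninduced 48 h replicate 1 (-0.33, adjusted p = 0.150) and without uninduced 48 h replicate 3 (-0.34, adjusted p = 0.139). It also ended with no filter (adjusted p = 0.0648), without an intensity trend (adjusted p = 0.0698) and with only the arrays compared (adjusted p = 0.0638). The second Nodal probe set, 1422057_at, had signals of 81.1, 97.2 and 101 in induced and 120.3, 194 and 134 in uninduced embryoid bodies at 12 h, and of 125, 158 and 145 in induced and 187, 175 and 219 in uninduced ones at 48 h. It stood at -0.52 ± 0.172, -0.24 ± 0.172 and -0.37 ± 0.172 and was called at none of the 3 times. Its induced arrays lay below the uninduced ones at 12 and 48 h and overlapped them at 24 h. The difference in the induction effect between 24 h and 12 h was 0.03 ± 0.160 for 1422058_at, and between 48 h and 24 h -0.03 ± 0.160, neither called by limma (adjusted p = 0.991 and 0.979).

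Between 12 and 24 h Nodal rose in both arms. For 1422058_at the rise was 0.65 ± 0.113 in induced (adjusted p = 8.30e-04) and 0.63 ± 0.113 in uninduced embryoid bodies (adjusted p = 0.00524). For 1422057_at it was 0.96 ± 0.172 in induced embryoid bodies (adjusted p = 0.00109). In uninduced ones it was 0.68 ± 0.172 (adjusted p = 0.0392), and that call ended without any 1 of 4 of the arrays compared (adjusted p up to 0.194 without uninduced 24 h replicate 1; the others were uninduced 24 h replicate 2 and uninduced 12 h replicates 1 and 3). It also ended with no filter, without an intensity trend and with only the arrays compared (adjusted p = 0.0646 to 0.0922). From 24 to 48 h neither probe set was called in either arm, with log2 changes of -0.23 and -0.48 in induced and -0.21 and -0.35 in uninduced embryoid bodies. Without induced 24 h replicate 3 the change of 1422057_at in induced embryoid bodies was -0.71 and was called (adjusted p = 0.00278). The 2 probe sets correlated at 0.826 over the 18 arrays.

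Gdf3, a Nodal-like ligand gene of stem cells and epiblast, fell late in both arms and was not called for induction at any time. The signal of 1449288_at averaged 474 ± 42.1, 417 ± 27.8 and 95.2 ± 14.9 in induced embryoid bodies at 12, 24 and 48 h, against 539.9 ± 33.3, 466 ± 53.9 and 123 ± 14.4 in uninduced ones (SD, n = 3 each). The drop lay between 24 and 48 h in both arms. The log2 change over that day was -1.82 ± 0.103 in induced (adjusted p = 4.87e-11) and -1.68 ± 0.103 in uninduced embryoid bodies (adjusted p = 2.50e-10). Induced arrays were the lower ones at 12 h and overlapped the uninduced arrays at 24 and 48 h. The induction changes were -0.18 ± 0.103, -0.15 ± 0.103 and -0.29 ± 0.103, with limma adjusted p = 0.620, 0.622 and 0.0980. Without induced 48 h replicate 2 the last became -0.38 and was called (adjusted p = 0.0330). The other probe set, 1460057_at, also fell in both arms from 24 to 48 h (-1.16 ± 0.118 in induced and -1.11 ± 0.118 in uninduced) and correlated with the first at 0.982 over the 18 arrays.

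Of the coreceptors, Tdgf1 was at the top of the arrays, between their 97.9 and 99.0 percentiles, and had the narrowest span of group means among the members, 0.59 log2 units. Its signals at 24 h were 4319, 4311 and 3810 in induced embryoid bodies, against 2905, 3417 and 2775 in uninduced ones. All 3 induced arrays were higher, a log2 change of 0.45 ± 0.104 or 1.37-fold (adjusted p = 0.0197). At 12 h the signals were 3930, 3848 and 3536 in induced and 2766, 2534 and 3771 in uninduced embryoid bodies, where 1 uninduced array, replicate 3, reached the induced range. The change then was 0.34 ± 0.104 (limma adjusted p = 0.202), and without that array it was 0.50 and called (adjusted p = 0.00406). At 48 h the signals overlapped, 3985, 4362 and 4008 in induced and 4246, 4701 and 4522 in uninduced embryoid bodies (-0.12 ± 0.104, limma adjusted p = 0.575). From 24 to 48 h Tdgf1 rose in uninduced embryoid bodies by 0.57 ± 0.104 (adjusted p = 4.45e-04), while the induced ones stood at -0.01 ± 0.104. The induction effect at 48 h was lower than that at 24 h by -0.57 ± 0.147 (limma adjusted p = 0.0448). The call at 24 h ended without induced 24 h replicate 1 or 2 or uninduced 24 h replicate 1 or 3 (log2 changes of 0.39 to 0.42, adjusted p = 0.0768 to 0.102), and without an intensity trend (adjusted p = 0.0618). The call on the difference ended in 14 of the 23 other fits (adjusted p up to 0.117), among them the fits without any 1 of 9 of the arrays compared: induced 24 h replicates 1 and 2, uninduced 24 h replicates 1 and 3, induced 48 h replicates 1 and 3 and uninduced 48 h replicates 1, 2 and 3.

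Cfc1, the coreceptor gene best known from left-right patterning, rose late in both arms. Its signals at 48 h were 455, 265 and 369 in induced and 266, 265 and 254 in uninduced embryoid bodies, so the induced arrays were more scattered and overlapped the uninduced ones. The log2 change was 0.40 ± 0.169 with a 95% interval of 0.05 to 0.75 (limma adjusted p = 0.176). Without induced 48 h replicate 2 it was 0.59 and called (adjusted p = 0.0330). At 12 h the signal averaged 79.2 ± 19.3 in induced and 70.6 ± 12.6 in uninduced embryoid bodies, and at 24 h 98.8 ± 21.5 in induced and 102 ± 26.0 in uninduced ones (SD, n = 3 each), with overlap at both times and changes of 0.11 ± 0.169 and -0.02 ± 0.169. The rise from 24 to 48 h was 2.99-fold in induced (adjusted p = 4.91e-07) and 2.23-fold in uninduced embryoid bodies (adjusted p = 3.82e-05), and the difference of the induction effects was not called (0.42 ± 0.240, limma adjusted p = 0.546).

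**Figure D2:**
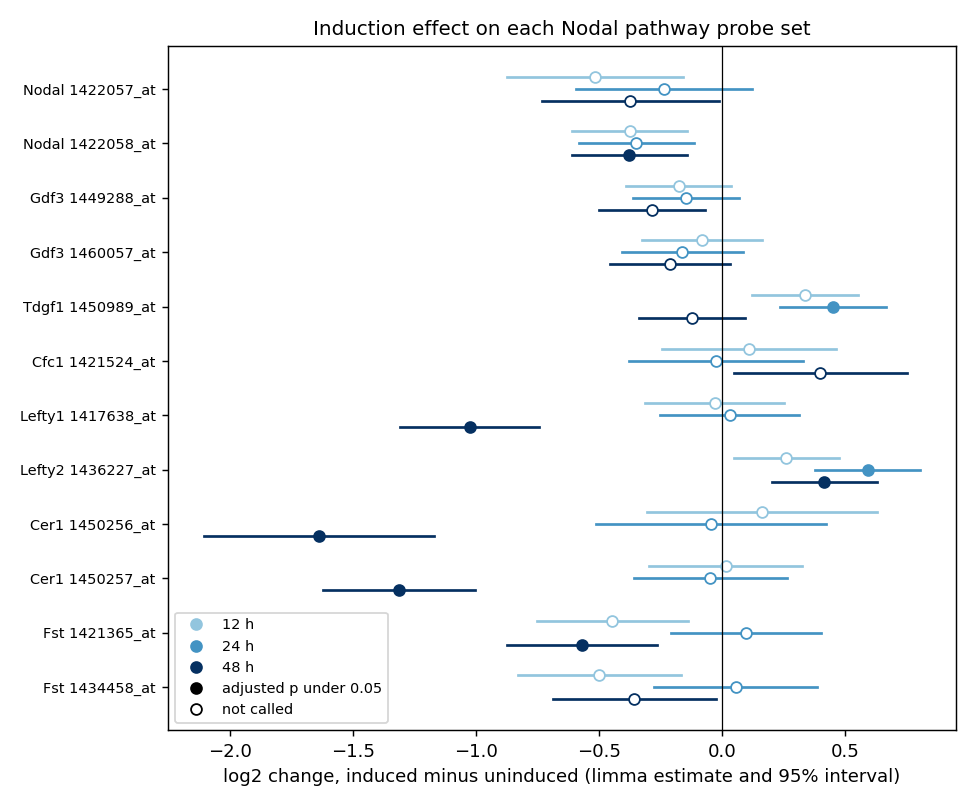
Log2 change of induced minus uninduced embryoid bodies for each of the 12 probe sets, with points for the limma estimate, lines for its 95% interval and light to dark blue for 12, 24 and 48 h. Filled points had an adjusted p under 0.05: the coreceptor gene Tdgf1 at 24 h and Lefty2 at 24 and 48 h to the right of 0, and Nodal 1422058_at, Lefty1, both probe sets of Cer1 and Fst 1421365_at at 48 h to the left.

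The antagonist genes Lefty1 and Lefty2 went opposite ways with induction at 48 h. Both encode secreted inhibitors of Nodal. Lefty1 (1417638_at) had signals of 1438, 1406 and 1264 in induced and 1292, 1382 and 1528 in uninduced aggregates at 12 h. At 24 h it had 1485, 1478 and 1453 in induced and 1471, 1396 and 1454 in uninduced ones. The arms overlapped at both times, with changes of -0.03 ± 0.136 and 0.03 ± 0.136 and 95% intervals of -0.31 to 0.25 and -0.25 to 0.31. At 48 h the signals were 149.9, 271 and 156 in induced embryoid bodies, against 443, 341 and 462 in uninduced ones. All induced arrays were lower, a 2.04-fold difference (-1.03 ± 0.136, adjusted p = 1.73e-05). Lefty1 fell from 24 to 48 h in both arms, with log2 changes of -2.79 ± 0.136 in induced (adjusted p = 6.04e-12) and -1.73 ± 0.136 in uninduced embryoid bodies (adjusted p = 8.89e-09). The induction effect at 48 h differed from that at 24 h by -1.06 ± 0.192 (limma adjusted p = 0.00340), and these comparisons share arrays.

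Lefty2 (1436227_at) was higher with induction on every array at all 3 times. Its signals at 12 h were 1503, 1589 and 1431 in induced and 1209.9, 1206 and 1346 in uninduced embryoid bodies, a change of 0.26 ± 0.102 that was not called (limma adjusted p = 0.371). At 24 h they were 1408, 1436 and 1466 in induced and 924, 897 and 1013 in uninduced ones. The gap was 1.51-fold (0.59 ± 0.102, adjusted p = 0.00166) and kept its call in all 17 other fits run. At 48 h they were 615, 952 and 739 in induced and 531, 583 and 566 in uninduced ones (0.42 ± 0.102, adjusted p = 0.0102). Induced 48 h replicate 2 was the highest of these arrays, as it also was for Lefty1 and Cer1 among the induced arrays. Without it the change at 48 h was 0.26 (adjusted p = 0.0726), and without uninduced 48 h replicate 1 it was 0.38 (adjusted p = 0.0543). The call also ended with only the arrays compared (adjusted p = 0.0621). For Lefty1 the change without induced 48 h replicate 2 was -1.26 (adjusted p = 3.61e-08). Uninduced Lefty2 declined over the whole course, with log2 changes of -0.40 ± 0.102 from 12 to 24 h (adjusted p = 0.0421) and -0.72 ± 0.102 from 24 to 48 h (adjusted p = 2.46e-05). The first of these calls ended without any 1 of 5 arrays, uninduced 12 h replicates 1, 2 and 3 and uninduced 24 h replicates 1 and 2 (adjusted p = 0.0874 to 0.153). It also ended with quantile normalization, with no filter, without an intensity trend and with only the arrays compared (adjusted p = 0.0528 to 0.0849). Induced Lefty2 stood at -0.07 ± 0.102 from 12 to 24 h (limma adjusted p = 0.753) and at -0.90 ± 0.102 from 24 to 48 h (adjusted p = 1.08e-06).

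Epiblast and stem cell markers moved at 48 h as well. Of 6 measured markers (Pou5f1, Nanog, Sox2, Fgf5, Utf1, Dnmt3b) 6 were lower in induced embryoid bodies at 48 h. Their summed signal was 9587 to 13149.6 on the induced arrays, against 16408 to 19728 on the uninduced arrays, and at 24 h it was 18207 to 18556 against 18815 to 19631 with 0 of 6 called by limma and 4 at an unadjusted p under 0.05. At 12 h the sum was higher on the induced arrays, 20543 to 21650 against 18982 to 20363, with 0 of 6 called by limma and 0 at an unadjusted p under 0.05. Presomitic markers were higher in 2, 5 and 7 of 7 genes at 12, 24 and 48 h. Over all probe sets tested, 0.649%, 2.31% and 8.85% were called in either direction at these times. At 48 h 4.94% of all were higher and 3.9% lower. Of 8 markers of the feeder fibroblasts 2, Col1a2 and Fbln2, were higher at 48 h, where their summed signal was 816 to 978 on the induced and 554 to 681 on the uninduced arrays. At 12 h limma called 0 of these 8, with 5 at an unadjusted p under 0.05 and a median log2 change of 0.26. At 24 h it called 1 higher and 0 lower, with a median of 0.04. The part of these cells in the changes of Nodal, Lefty1 and Lefty2 was not tested.

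Cer1, which encodes a secreted antagonist made by anterior endoderm, showed the largest induction change of the members. The signals of 1450256_at at 12 h were 42.2, 60.6 and 63.0 in induced and 38.2, 48.8 and 50.2 in uninduced embryoid bodies. At 24 h they were 49.3, 55.8 and 134 in induced and 108, 55.9 and 73.5 in uninduced ones, and the arms overlapped at both times. At 48 h they were 75.0, 127 and 82.5 in induced, against 427, 263 and 400.2 in uninduced embryoid bodies, with no overlap. The log2 change was 0.16 ± 0.225 at 12 h, -0.05 ± 0.225 at 24 h and -1.64 ± 0.225 at 48 h, the last 3.11-fold lower (adjusted p = 2.68e-05). In uninduced embryoid bodies Cer1 rose 3.56-fold from 24 to 48 h (adjusted p = 4.29e-06), while the induced ones stood at 0.24 ± 0.225 (limma adjusted p = 0.523). The difference of the induction effect between 48 and 24 h was -1.59 ± 0.318 (limma adjusted p = 0.00785). The dimmer probe set 1450257_at was 15.2, 19.9 and 12.1 in induced and 16.9, 16.3 and 12.4 in uninduced aggregates at 12 h, under the offset of 32. At 48 h it was 16.8, 40.1 and 27.7 in induced and 128, 91.3 and 132 in uninduced ones, 2.48-fold lower (-1.31 ± 0.149, adjusted p = 2.40e-06). Both probe sets kept the call at 48 h in every other fit run (17 and 16 fits), and their correlation over the 18 arrays was 0.958.

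Markers of endoderm were examined beside Cer1. Of 8 measured markers of definitive endoderm and node, 4 were lower (Foxa2, Sox17, Foxj1, Chrd), 1 was higher (Cxcr4) and 3 were not called at 48 h. Over all probe sets tested, 3.9% were called lower and 4.94% higher at 48 h. The summed signal of the 8 markers was 1296 to 1573 on the induced arrays at 48 h, against 1994 to 2504 on the uninduced arrays. At 24 h it went the other way, 556 to 726 on the induced and 413 to 482 on the uninduced arrays. Limma then called 2 of the 8 markers higher and 0 lower, where 1.85% and 0.465% of all probe sets tested were. Foxa2, Sox17, Gsc, Hhex and Cxcr4 are also in the list of Nodal targets described below, so the lists overlap. At 48 h Foxa2, a forkhead factor of endoderm and node, averaged 168 ± 50.7 in induced and 772 ± 63.3 in uninduced embryoid bodies (SD, n = 3 each), a change of -2.04 ± 0.176 (adjusted p = 5.89e-08). Sox17, an endoderm factor, averaged 317 ± 45.8 in induced and 597 ± 114 in uninduced ones at 48 h (-0.84 ± 0.150, adjusted p = 5.60e-04, by a probe set of a type that can match other transcripts). In the visceral and extraembryonic endoderm list, of 8 tested markers 1, Sox7, was higher at 48 h and 0 were lower by limma. The summed signal of all 10 markers was 323 to 372 on the induced and 254 to 290.0 on the uninduced arrays at 48 h. The defining markers Afp and Ttr were too dim to be tested, with group means of at most 5.76 and 12.0 in any group. The part of these cells in the change of Cer1 was not tested.

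**Figure D3:**
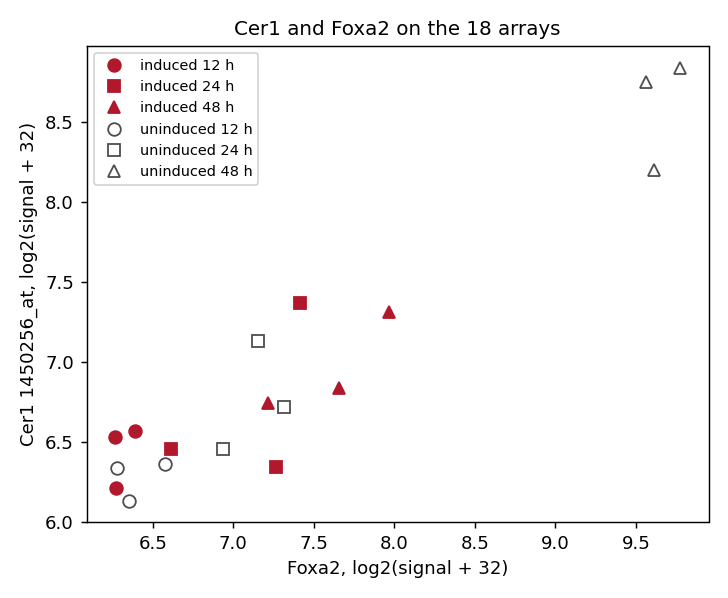
Each point is 1 of the 18 arrays, with log2(signal + 32) of Foxa2 on the x axis and of Cer1 (1450256_at) on the y axis, filled red for induced and open grey for uninduced arrays, and circles, squares and triangles for 12, 24 and 48 h. The 3 uninduced 48 h arrays stand apart at the upper right, and the induced 48 h arrays lie among or near those of 24 h.

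Fst, the follistatin gene, had the widest range of the members, with group means that spanned 4.03 log2 units for 1421365_at and 3.32 for 1434458_at. The signals of 1421365_at at 12 h were 92.1, 94.8 and 81.5 in induced and 118, 162 and 124 in uninduced embryoid bodies. At 24 h they were 303, 358 and 354 in induced and 317, 246 and 395 in uninduced ones, and at 48 h 1022, 1448 and 1504 in induced and 2089.7, 2111 and 1691 in uninduced ones. The induced arrays lay below the uninduced arrays at 12 and 48 h and overlapped them at 24 h. The log2 changes were -0.45 ± 0.147 at 12 h (limma adjusted p = 0.238), 0.10 ± 0.147 at 24 h (limma adjusted p = 0.864) and -0.57 ± 0.147 at 48 h (adjusted p = 0.0152). For 1434458_at the signals at 48 h were 2172, 2864 and 2537 in induced and 3129.9, 3549.6 and 3016 in uninduced embryoid bodies. Its arrays separated at the same times, with -0.50 ± 0.159, 0.05 ± 0.159 and -0.36 ± 0.159, and limma called none (adjusted p = 0.217, 0.941 and 0.200). The call of 1421365_at at 48 h ended without induced 48 h replicate 1 (-0.40, adjusted p = 0.129), without uninduced 48 h replicate 1 (-0.52, adjusted p = 0.0724) and without uninduced 48 h replicate 2 (-0.51, adjusted p = 0.0708).

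The rise of Fst over time was larger than its distance between the arms. From 12 to 24 h 1421365_at rose 3.05-fold in induced (adjusted p = 9.31e-07) and 2.09-fold in uninduced embryoid bodies (adjusted p = 6.11e-04). From 24 to 48 h it rose 3.62-fold in induced (adjusted p = 5.72e-09) and 5.74-fold in uninduced ones (adjusted p = 1.36e-10). The difference of the induction effects was 0.54 ± 0.208 between 24 and 12 h and -0.67 ± 0.208 between 48 and 24 h, and limma called neither (adjusted p = 0.600 and 0.128). Without uninduced 24 h replicate 3 the second was -0.82 and was called (adjusted p = 0.0350). The 2 probe sets correlated at 0.990 over the 18 arrays.

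Counted over time, uninduced embryoid bodies had 5 of 12 probe sets called between 12 and 24 h, 4 higher (Nodal and Fst) and 1 lower (Lefty2), against 2.39% of all probe sets tested, 1.31% higher and 1.08% lower. The count was 3 without any 1 of uninduced 12 h replicates 1 and 3, uninduced 24 h replicates 1 and 2, induced 12 h replicate 2 and induced 48 h replicate 3. Between 24 and 48 h 10 of 12 were called, 6 higher (Tdgf1, Cfc1, Cer1, Fst) and 4 lower (Gdf3, Lefty1, Lefty2), against 19.2% of all, 10.8% higher and 8.46% lower. In induced embryoid bodies 4 of 12 were called between 12 and 24 h, 4 higher (Nodal and Fst) and 0 lower, against 10.1% of all, 6.13% higher and 3.96% lower. Between 24 and 48 h 7 of 12 were called, 3 higher (Cfc1, Fst) and 4 lower (Gdf3, Lefty1, Lefty2), against 20.2% of all, 10.8% higher and 9.38% lower. The induction effect differed between 12 and 24 h in 0 of 12 probe sets by limma, where 0.0499% of all were called and 3 of 12 had an unadjusted p under 0.05. Between 24 and 48 h it differed in 4 of 12, Tdgf1, Lefty1 and both of Cer1, with 0 higher and 4 lower, against 1.93% of all, 0.967% higher and 0.967% lower.

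The rest of the pathway was described by lists of genes, each through its brightest probe set. In the fit with 1 probe set per gene, limma called 153, 552 and 1768 of all 14351 genes at 12, 24 and 48 h. The difference of the induction effect between 48 and 24 h was called there for 440 genes. Among other ligands and the convertases that cleave Nodal, 0 of 5 measured genes were called for induction by limma at any time, and 0, 0 and 1 had an unadjusted p under 0.05 at the 3 times. The median log2 changes of this list were -0.01, -0.03 and -0.14. The activin subunit gene Inhbb stood at 0.16 ± 0.173 and -0.20 ± 0.173 at 12 and 24 h and the convertase gene Pcsk6 at -0.33 ± 0.132 at 48 h. Pcsk6 fell from 24 to 48 h in both arms, with log2 changes of -0.67 ± 0.132 in induced (adjusted p = 7.24e-04) and -0.38 ± 0.132 in uninduced embryoid bodies (adjusted p = 0.0477).

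Among receptors, Smads and Foxh1, 1 of 8 measured genes rose with induction at 12 h, 1 at 24 h and 2 at 48 h, and none fell in limma's test. Over all probe sets tested, 0.649% were called at 12 h, and 1.85% and 4.94% were called higher at 24 and 48 h. Of the 8 genes, 5, 3 and 4 had an unadjusted p under 0.05 at 12, 24 and 48 h. Foxh1, the DNA-binding partner of the Nodal Smads, averaged 508 ± 29.6 in induced and 344 ± 28.7 in uninduced aggregates at 12 h (0.52 ± 0.0833, adjusted p = 0.00161). At 48 h it averaged 696 ± 37.5 in induced and 430.3 ± 34.9 in uninduced ones (0.66 ± 0.0833, adjusted p = 1.03e-05). Smad3, a receptor-regulated Smad, was higher at 24 h (0.62 ± 0.115, adjusted p = 0.00315), and the activin receptor gene Acvr2a at 48 h (0.42 ± 0.121, adjusted p = 0.0288). The median log2 changes of the list were 0.20, 0.17 and 0.23.

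Of 10 other inhibitors measured, limma called 0 at 12 h and 0 at 24 h (2 and 3 at an unadjusted p under 0.05), and at 48 h 1 was higher and 3 were lower. Over all probe sets tested, 4.94% were called higher and 3.9% lower at 48 h. Pmepa1, a feedback inhibitor gene, stood at -0.33 ± 0.140 at 12 h and the inhibitory Smad gene Smad7 at -0.29 ± 0.0891 at 24 h. Bambi, which encodes a receptor-like protein without a kinase, averaged 387 ± 62.9 in induced and 181 ± 7.76 in uninduced aggregates at 48 h (0.97 ± 0.101, adjusted p = 8.00e-07). The Smad corepressor genes Tgif1 (-0.53 ± 0.103, adjusted p = 0.00133) and Skil (-0.41 ± 0.127, adjusted p = 0.0476) and the Smad4-directed ubiquitin ligase gene Trim33 (-0.43 ± 0.0698, adjusted p = 1.78e-04) were lower. The median log2 changes were -0.11, -0.07 and -0.06.

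Streak and endoderm genes known as targets of Nodal split by time. At 24 h 5 of 9 measured genes rose and none fell, with a median log2 change of 0.58, and at 48 h 1 rose and 3 fell, with a median of -0.08. Over all probe sets tested, 1.85% were called higher and 0.465% lower at 24 h, and 4.94% and 3.9% at 48 h. At 12 h limma called 0 of 9, and 3 had an unadjusted p under 0.05. Eomes, a T-box factor of the streak, averaged 1453 ± 187 in induced and 485 ± 153 in uninduced aggregates at 24 h (1.55 ± 0.166, adjusted p = 4.45e-06). The homeobox genes Lhx1 (1.46 ± 0.167, adjusted p = 1.13e-05) and Mixl1 (1.19 ± 0.190, adjusted p = 7.11e-04) and the chemokine receptor gene Cxcr4 (1.20 ± 0.126, adjusted p = 3.65e-06) rose with it. At 48 h Eomes averaged 2685 ± 698 in induced and 2779.5 ± 139.6 in uninduced embryoid bodies. Foxa2 and Sox17 fell as given above, and Otx2, a homeobox gene of epiblast and anterior tissue, averaged 1231 ± 228 in induced and 2549 ± 124 in uninduced ones (-1.05 ± 0.0922, adjusted p = 7.07e-08). The difference of the induction effect between 48 and 24 h was called for 6 of 9, all negative, among them Foxa2 (-2.00 ± 0.249), Eomes (-1.64 ± 0.234), Lhx1 (-1.41 ± 0.236) and Gsc (-0.98 ± 0.244), with limma adjusted p up to 0.0371 in these 4. That difference was called negative in 0.967% of all probe sets tested.

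**Figure D4:**
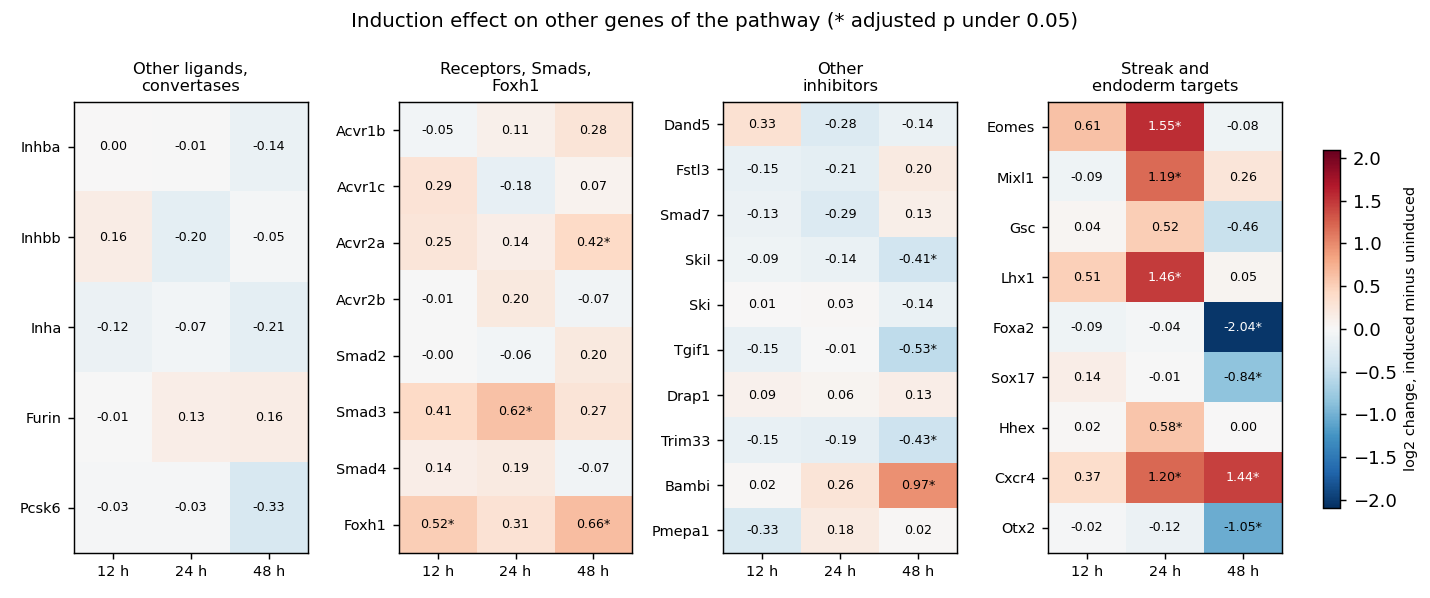
Each cell gives the log2 change of induced minus uninduced embryoid bodies for 1 gene (row) at 1 time (column), coloured from blue (lower in induced) to red (higher), with an asterisk where the adjusted p was under 0.05. Foxh1 is marked at 12 h, and Eomes, Mixl1, Lhx1, Hhex, Cxcr4 and Smad3 are marked at 24 h, all as higher. At 48 h Foxa2, Otx2, Sox17, Tgif1, Trim33 and Skil are marked as lower and Bambi, Cxcr4, Foxh1 and Acvr2a as higher.

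For each member, the genes with the most similar course were taken by Pearson's r of log2(signal + 32) over the 18 arrays, among 1047 genes whose group means spanned at least 1 log2 unit. These arrays share 6 groups of 3, so r mostly follows the group means, and it is given as a description. Cer1 was nearest to Foxa2 (0.949, with the 3 uninduced 48 h arrays far from the rest), Frem2 (0.913) and Slc39a8 (0.908). Fst was nearest to the ligand genes Fgf8 (0.984) and Wnt8a (0.964) and to Arhgef26 (0.968). Gdf3 was nearest to Dppa4 (0.988), Gsta4 (0.987) and Fgf4 (0.985), and Lefty1 to Pir (0.984), Gclm (0.970) and Myh6 (0.969). Lefty2 was nearest to Pcolce2 (0.944), Epas1 (0.932) and Cebpd (0.929). Cfc1 was nearest to Vopp1 (0.971), Rnf217 (0.970) and Krt19 (0.967). Lower values were found for Tdgf1, with Ccng2 (0.866), Ndrg1 (0.856) and Upp1 (0.843), and for Nodal, with Prxl2a (0.794), Sertad4 (0.793) and Castor2 (0.782). Among the members themselves r ranged from -0.96 for Gdf3 and Cfc1 to 0.97 for Gdf3 and Lefty1.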

How the data were processed

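The authors deposited linear signal intensity for 45101 probe sets and 18 arrays; GCOS is the only software named, per the submitters' processing notes, without its settings. Trimmed by 2%, the mean signal equalled 150.0 in each array, which shows scaling per array before deposit, and no normalization was added. Probe sets took their gene from the platform annotation, updated by Entrez identifier (34741 matched). After 64 control probe sets were removed, those with 1 symbol and a mean of at least 13.2 (the 40th percentile of all values) in 1 or more groups were tested.

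Limma 3.58.1 in R 4.3.3 fitted 1 mean per group to log2(signal + 32) over all arrays (12 residual degrees of freedom, moderated variances that follow mean intensity). Its 2-sided p-values received Benjamini-Hochberg adjustment over the 26049 probe sets. Confidence intervals are at 95%. The members and lists were chosen with earlier results of these data known. All members were named. Lists gave up to 4 called genes, or up to 2 with values only. Gdf1 and Noto had no probe set matched to them alone. Other settings tried were quantile normalization, no filter or the 60th percentile, offsets of 16 and 64, 1 probe set per gene, other variance priors, only the arrays compared, a replicate block and leaving out each array. At 24 h the deviations of arrays with the same number correlated at 0.20, 0.12 and 0.44, all over 0.1. That rule would pair arrays by number there, from the data and not the labels. Pairing entered only the replicate block fits. The fit of 1 mean per group, which gave the reported calls, used none. Arrays with different numbers correlated at 0.21 (induced 1, uninduced 2) and 0.11 (induced 2, uninduced 1). Where replicate 3 met another number the values were -0.33 to -0.19. The values thus set replicate 3 apart and do not establish a pairing of replicates 1 and 2 by number. The fit was tested on simulated data. Figures used Python 3.11.15 and matplotlib 3.10.9.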

Additional observations from a re-analysis of the deposited data

Results flagged for a closer look

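The induction effect differed between 24 and 48 h, by the test of the difference itself, in 4 probe sets of 3 members. The difference, effect at 48 h minus effect at 24 h, was -0.57 for Tdgf1, -1.06 for Lefty1, and -1.59 (1450256_at) and -1.27 (1450257_at) for Cer1. Those of Lefty1 and Cer1 kept the call in every other fit run (adjusted p up to 0.0298), and that of Tdgf1 lost it in 14 of 23.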

How the results depend on the processing

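The count of called members moved by over 1.5 times in these fits. For induced against uninduced at 12 h it was 0, and became 1 with only the arrays compared and 2 with the replicate block, both of these lower (Nodal 1422057_at, adjusted p = 0.0399, and Fst 1434458_at, adjusted p = 0.0332). Without single arrays it was 0 to 1. At 24 h it was 2, and became 1 without an intensity trend and 1 to 2 without single arrays. At 48 h it was 6, and 3 to 7 without single arrays, 3 of them without uninduced 48 h replicate 1. From 12 to 24 h in uninduced arrays it was 5, and became 3 with no filter, 3 with 1 probe set per gene, 3 without an intensity trend, 3 with only the arrays compared and 3 to 5 without single arrays. In induced arrays it was 4, and became 2 with 1 probe set per gene, where 8 members remain. The replicate block gave 2 at 24 h, 8 at 48 h and 4 for the difference between 24 and 48 h, and changed no call at 24 h. At 12 and 48 h same-numbered arrays correlated between -0.10 and 0.12. With the number as 1 factor over all arrays, an alternative added after the data were seen, the counts were 0, 2 and 6 at the 3 times and 3 for the difference between 24 and 48 h. Over all probe sets, calls ranged over the fits from 88 to 238 at 12 h (169 as reported), 264 to 755 at 24 h (602), 127 to 1040 from 12 to 24 h in uninduced arrays (623), 1359 to 3073 in induced arrays (2629) and 6 to 25 for the difference between 12 and 24 h (13).

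Changes that turned sign were all uncalled ones near 0. Quantile normalization gave -0.0031 for Cer1 1450257_at at 12 h. Without single arrays the change at 12 h ranged from -0.15 to 0.0477 for Gdf3 1460057_at, -0.0281 to 0.20 for Cfc1, -0.0862 to 0.0320 for Lefty1 and -0.0481 to 0.0698 for Cer1 1450257_at. At 24 h it ranged from -0.17 to 0.12 for Cfc1, -0.37 to 0.14 and -0.12 to 0.0871 for the 2 probe sets of Cer1, and -0.0607 to 0.25 and -0.16 to 0.30 for those of Fst. The cause of these changes was not tested. Dim probe sets such as Cer1 1450257_at lay under the offset of 32 at 12 h. Group means of Cer1 1450257_at were also under it at 24 h (25.6 in induced and 27.4 in uninduced) and in induced arrays at 48 h (28.2).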
